A study of Mus musculus with 8 samples.

Results

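Paneth cells flank the stem cells at the base of the small intestinal crypt, and they deliver several of the signals that keep those neighbours dividing. This account covers 10 genes of that niche. They were chosen by name for their known roles, at a time when earlier results of these data were known. Of these, 8 encode ligands, namely the Wnt ligands Wnt3 and Wnt11, the EGF family ligands Egf, Tgfa, Areg and Ereg, and the Notch ligands Dll1 and Dll4, and the remaining 2 encode the Eph receptors Ephb2 and Ephb3. All 10 were found by gene ID among the 55414 genes of the table, and 7 of them were among the 11988 genes with enough counts to be tested. Wnt11, Areg and Ereg were too low for the test.

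RNA was sequenced from sorted Paneth cells of C57BL/6J mice that had been given Milli-Q water for 7 days, as such in the water group or with 25 mM ZnSO4 in the zinc group. There were 4 libraries in each group, and the study's methods describe one mouse per sample. Genotype, tissue and sort were the same in both groups, and the labels give no age. The gate of the study took CD24+ c-Kit+ cells with medium to high side scatter that lacked CD31, CD45 and TER119.

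The libraries held 20760764 to 24117111 counts. The summed level of 7 Paneth cell markers was 341700 to 708400 CPM (read counts divided by the size of the library, here adjusted by the TMM factors that edgeR takes from the bulk of the genes), so Paneth cell RNA was abundant in every library. All 4 stromal markers (Col1a1, Col1a2, Pdgfra and Dcn) were at 0 in every library, as were 2 of 3 endothelial markers (Cdh5 and Kdr), and the third, Pecam1, did not pass 0.313 CPM. The summed goblet cell markers reached 8630 to 14760 CPM. Spink4 was the largest part of this sum, at 4750 to 9880 CPM, whereas Clca1 ran from 5.52 to 238 CPM. The stem cell markers summed to 4770 to 6293 CPM in water and 3529 to 4956 CPM in zinc, and most of this sum was Olfm4. Cycling markers leaned the other way, at 139 to 206 CPM in water and 183 to 257 CPM in zinc. The groups overlapped in both sums, and neither difference was tested. In bulk RNA, a lower level of a gene in each cell and a smaller number of cells that express it cannot be told apart. Known zinc response genes were checked first. The metallothionein gene Mt2 was at 2.15 to 7.32 CPM in water and 205.1 to 455.3 CPM in zinc (log2 fold change 6.15 ± 0.51 SE, edgeR adjusted p = 0.0198). Mt1, another metallothionein gene, rose by 3.65 on the log2 scale (adjusted p = 0.0259), and the zinc exporter gene Slc30a1 by 2.01 (adjusted p = 0.0198). Among all genes, 10 passed the threshold of 0.05, which is 0.0834% of the genes tested, with 3 higher and 7 lower in zinc.

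The niche signals are known to work over short distances. Wnt3 is a lipid-bearing ligand that stays on membranes and drives the division of stem cells through Frizzled receptors, while Wnt11 is better known for Wnt signalling that does not run through β-catenin. EGF family ligands are made as membrane-bound precursors, are shed by metalloproteases and activate ErbB receptors. Dll1 and Dll4 stay on the cell surface and activate Notch receptors of the adjoining cell. EphB receptors read the ephrin-B ligands of cells higher in the crypt and keep their own cell near the base, which for Paneth cells is known above all of Ephb3.

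The promoters of these genes were searched for the core of the metal response element, the site through which the zinc sensor Mtf1 switches on the metallothionein genes. The core was taken as TGCACNC or TGCGCNC on either strand in the 250 bases before each RefSeq start (build GRCm38.p6). RefSeq starts were at hand for 9 of the 10 genes, with 12 windows in all. The windows of Wnt3, Dll4 and Mt2 are given here, because the first belongs to the most abundant of the 10 genes, the second to the one with the largest fitted difference and the third to a gene that rose in zinc. Each runs 5′ to 3′ on the strand of its gene and ends at the base before the start, and capitals mark the core.
Wnt3 (chr11:103773925-103774174, plus strand): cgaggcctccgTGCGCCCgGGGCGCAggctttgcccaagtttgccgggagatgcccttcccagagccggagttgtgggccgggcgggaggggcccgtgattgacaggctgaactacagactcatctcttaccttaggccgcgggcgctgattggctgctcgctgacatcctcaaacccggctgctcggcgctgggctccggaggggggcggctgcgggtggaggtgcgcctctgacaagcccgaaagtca
Dll4 (chr2:119325534-119325783, plus strand): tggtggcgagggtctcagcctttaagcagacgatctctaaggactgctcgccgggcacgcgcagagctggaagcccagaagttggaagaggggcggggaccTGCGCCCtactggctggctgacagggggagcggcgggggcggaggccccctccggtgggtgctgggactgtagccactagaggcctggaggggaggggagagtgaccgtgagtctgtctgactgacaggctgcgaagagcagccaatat
Mt2 (chr8:94172368-94172617, plus strand): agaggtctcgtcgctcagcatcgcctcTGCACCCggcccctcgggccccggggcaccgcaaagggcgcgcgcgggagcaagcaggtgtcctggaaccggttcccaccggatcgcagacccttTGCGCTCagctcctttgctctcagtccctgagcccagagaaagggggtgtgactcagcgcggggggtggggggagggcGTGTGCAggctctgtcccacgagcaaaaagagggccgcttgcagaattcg
Wnt3 held 2 matches, at 239 and 231 bases before its start. Dll4 held 1 match, at 149 bases. Mt2 held 3, at 223, 128 and 50 bases. Mt1 and Slc30a1, which also rose in zinc, held 1 match each, at 23 and 43 bases. At least 1 match lay in 8 of the 12 windows of the niche genes (66.7%), against 7032 of the 32851 windows of all genes (21.4%). The windows of the niche genes were also richer in G and C, with a median of 64.8% against 52.4%, and the part of this difference in the share of matches was not tested. Areg and Ephb3 held no match in these windows, and in Dll1 the matches at 143 and 140 bases before the first start overlap, on opposite strands. A match describes the letters of the window and is not evidence that the site is used.

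Levels of different genes were compared as CPM per kb of merged exon. In this unit the 10 genes spanned more than 3 orders of magnitude. Wnt3 led with a mean of 46.4 ± 11.3 (SD over 8 libraries), followed by Ephb3 (17.3), Dll4 (7.26), Dll1 (5.55), Ephb2 (5.24), Egf (3.54) and Tgfa (1.59). Areg (0.0558), Ereg (0.0133) and Wnt11 (0.0105) closed the order. All 8 libraries held Wnt3 above Ephb3, Ephb3 above Dll4, Egf above Tgfa and Tgfa above Areg. The order of the other neighbours did not hold in every library. Dll4 exceeded Dll1 in 6 of 8 libraries, Dll1 exceeded Ephb2 in 6, Ephb2 exceeded Egf in 7, Areg exceeded Ereg in 5 and Ereg exceeded Wnt11 in 3. With the longest annotated transcript as the length, Egf moved from the sixth place to the third (7.58) and the first pair kept its places. Dll4 then exceeded Dll1 in 4 of 8 libraries, and Wnt11 and Ereg changed places. The ratios and shares given below use merged exons only, which for Egf hold 12225 bases beside 5711 in its longest transcript.

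**Figure D1:**
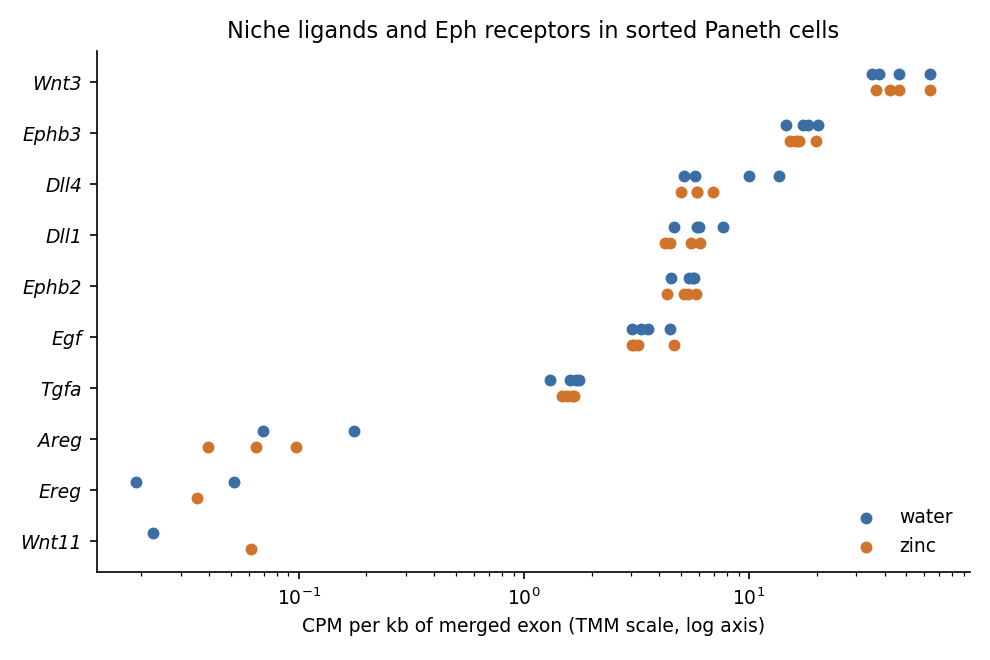
Level of each of the 10 genes in CPM per kb of merged exon on a log axis, 1 point per library (blue for water, orange for zinc, 4 libraries each). Libraries with 0 counts (5 for Ereg, 6 for Wnt11 and 3 for Areg) have no point. The water and zinc points of each of the 7 more abundant genes lie over each other, with Wnt3 on top and Tgfa lowest among these 7.

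No difference between the groups was detected in the 7 genes that could be tested. None passed the threshold, none had an unadjusted p under 0.05 in edgeR's quasi-likelihood test and none had water and zinc libraries that failed to overlap, against 2.84% of all genes tested. The adjusted p was 0.998 for each. One of the 7 log2 fold changes was above 0 and 6 were below, with a median of -0.05, beside 0.01 for all genes tested. DESeq2, fitted over the same libraries, called none of them either, and gave 1 unadjusted p under 0.05, that of Dll4.

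**Figure D2:**
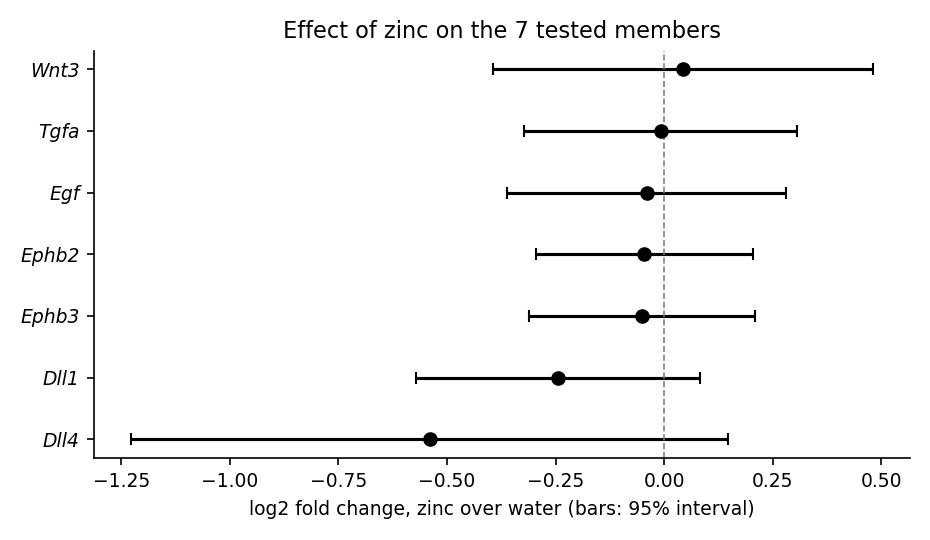
Log2 fold change of zinc over water for the 7 genes tested (points) with the 95% interval of the edgeR fit (bars) and a dashed line at 0. Every interval crosses 0, and that of Dll4 is the widest, from -1.23 to 0.15.

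Wnt3 (ENSMUSG00000000125, GRCm39 chromosome 11, 103664976 to 103708853, plus strand, 5 merged exons) is the Wnt ligand for which Paneth cells are best known as a source. It stood at 200.3, 145.5, 119.3 and 110.5 CPM in water replicates 1 to 4. In zinc it stood at 199.3, 145.8, 132.4 and 115.5 CPM. Both groups covered almost the same range, and the libraries numbered 1 were the highest of each. The log2 fold change was 0.04 ± 0.20 SE, with a 95% interval of -0.39 to 0.48, so a log2 change of 1 in either direction lay outside it.

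Wnt3 also made up nearly all of the Wnt ligand RNA. Its share of the length-scaled sum of 19 Wnt ligand genes was 96.5 to 97.9% over the 8 libraries. Of those 19 genes, 9 had no count in any library and 6 could be tested. Wnt11 (ENSMUSG00000015957, chromosome 7, 98484319 to 98504402, plus strand) had 3 counts in water replicate 4, 8 counts in zinc replicate 4 and 0 in the other 6 libraries. With 3 counts as the limit of a library without reads, Wnt11 could have reached at most 0.119 to 0.188 CPM there, and this limit covers counting error only. Of these 6, Wnt10a had the smallest p, at 0.54 ± 0.30 CPM in water and 1.48 ± 1.12 CPM in zinc (SD, n = 4, edgeR adjusted p = 0.998).

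Among 22 genes of Wnt secretion and reception, 17 could be tested and 0 passed the threshold. The highest per kb was the R-spondin receptor gene Lgr4, with a mean of 26.9, next to the Wnt receptor gene Fzd9 with 26.8. Lgr4 was at 186 ± 24.6 CPM in water and 214 ± 30.6 CPM in zinc. The smallest p was that of Fzd4, another Frizzled receptor gene, at 3.83 ± 1.19 CPM in water and 5.57 ± 1.20 CPM in zinc (log2 fold change 0.54 ± 0.26 SE, edgeR adjusted p = 0.998). The groups overlapped in both genes.

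Egf (ENSMUSG00000028017, chromosome 3, 129470410 to 129549093, minus strand, 25 merged exons) encodes the founding ligand of the EGF receptor. Its levels were 54.4, 43.4, 40.7 and 37.0 CPM in water and 56.7, 39.4, 36.8 and 37.8 CPM in zinc. As for Wnt3, the libraries numbered 1 were the highest of each group, and the groups overlapped. The log2 fold change was -0.04 ± 0.15 SE (95% interval -0.36 to 0.28).

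Tgfa (ENSMUSG00000029999, chromosome 6, 86172041 to 86252728, plus strand, 8 merged exons) encodes a second ligand of the same receptor. It was at 11.7, 8.94, 12.0 and 11.0 CPM in water and 11.2, 10.6, 10.2 and 11.4 CPM in zinc. The zinc libraries all lay inside the range of the water libraries, and the log2 fold change was -0.01 ± 0.15 SE (95% interval -0.32 to 0.31). The ratio of Egf to Tgfa per kb was 2.24 in water and 2.17 in zinc (geometric means), a difference of -0.05 on the log2 scale (exact two-sided permutation p = 0.943, adjusted p = 1 over 3 ratios). With 4 libraries against 4, the smallest p that this test can give is 0.0286.

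Areg (ENSMUSG00000029378, chromosome 5, 91287451 to 91296291, plus strand) and its neighbour Ereg (ENSMUSG00000029377, chromosome 5, 91222157 to 91241505, plus strand) encode amphiregulin and epiregulin, which are known from injured and inflamed epithelium. Areg had 0, 5, 2 and 0 counts in water and 2, 1, 2 and 0 counts in zinc. Ereg had 0, 0, 2 and 6 counts in water and 0, 0, 4 and 0 counts in zinc. Both stayed within a few counts of 0 in either group, and no fold change was taken. Egf held 53.8 to 65.2% of the length-scaled RNA of 11 EGF family ligand genes.

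Of those 11 ligand genes, 4 could be tested and 0 passed the threshold, and the smallest p was that of Nrg4, a neuregulin gene, at 2.02 ± 1.05 CPM in water and 2.52 ± 0.53 CPM in zinc. Of 10 genes for ErbB receptors, their regulators and the sheddases of the ligands, 9 could be tested and 0 passed. Lrig1, which encodes a negative regulator of ErbB receptors, had the highest level per kb (16.0) and was at 108 ± 8.41 CPM in water and 94.7 ± 6.37 CPM in zinc. Rhbdf1, which encodes a partner of the sheddase ADAM17, had the smallest p, at 9.76, 6.02, 9.56 and 8.52 CPM in water and 5.88, 6.76, 5.02 and 5.97 CPM in zinc. The fitted difference was -0.52 ± 0.19 SE on the log2 scale (edgeR adjusted p = 0.998), and only zinc replicate 2 and water replicate 2 kept the groups from standing apart.

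Dll4 (ENSMUSG00000027314, chromosome 2, 119156170 to 119166443, plus strand, 11 merged exons) had the highest mean level per kb of the Notch ligand genes. Its lead over Dll1 held in only 6 of 8 libraries. Dll4 also showed the largest fitted difference of the 7. It was at 39.5, 20.3, 53.5 and 22.7 CPM in water and 23.1, 19.7, 27.2 and 23.3 CPM in zinc. Water replicates 3 and 1 lay above all zinc libraries, whereas water replicates 2 and 4 lay within the zinc range, so the groups overlapped. The log2 fold change was -0.54 ± 0.30 SE (95% interval -1.23 to 0.15, edgeR adjusted p = 0.998, unadjusted p = 0.108). Without water replicate 3 it was -0.23.

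Dll1 (ENSMUSG00000014773, chromosome 17, 15587276 to 15597134, minus strand, 13 merged exons) encodes the other Delta ligand of the crypt. Its levels were 29.0, 23.0, 37.9 and 29.6 CPM in water and 22.2, 21.1, 27.5 and 29.9 CPM in zinc. Water replicate 3 was again the highest library and the groups overlapped. The log2 fold change was -0.24 ± 0.15 SE (95% interval -0.57 to 0.08, edgeR adjusted p = 0.998), and it was -0.11 without water replicate 3. The ratio of Dll4 to Dll1 per kb was 1.34 in water and 1.17 in zinc, a difference of -0.20 on the log2 scale (exact two-sided permutation p = 0.457, adjusted p = 1).

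Markers of enteroendocrine cells were highest in the same library as both Delta genes, but did not follow them in all libraries. Delta ligands are also made by early secretory cells, and 5 enteroendocrine markers (Chga, Chgb, Neurod1, Tph1 and Sct) summed to 40.3, 45.5, 108.5 and 62.1 CPM in water and 45.0, 46.6, 54.2 and 69.8 CPM in zinc. Water replicate 3 was the highest library for this sum as well as for Dll4 and Dll1. Water replicate 1, which had the second highest Dll4, had the lowest sum. The high sum of water replicate 3 came mostly from Chgb (63.4 CPM) and Chga (20.4 CPM), whereas Sct was at 20.5 CPM there and higher in water replicate 1 (36.5 CPM) and zinc replicate 1 (35.8 CPM). None of the 5 markers was at 0 in all libraries, although Chga and Neurod1 were at 0 in water replicate 1, and the part of these cells in the levels of Dll4 and Dll1 was not tested. The summed tuft cell markers had another order, at 14.0, 27.1, 51.4 and 120 CPM in water and 17.1, 49.0, 81.7 and 61.2 CPM in zinc. They were highest in water replicate 4. Endothelial cells are also a known source of Dll4, and their part in its level was not tested. The summed level of 3 endothelial markers was at most 0.313 CPM in water and 0 in zinc.

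**Figure D3:**
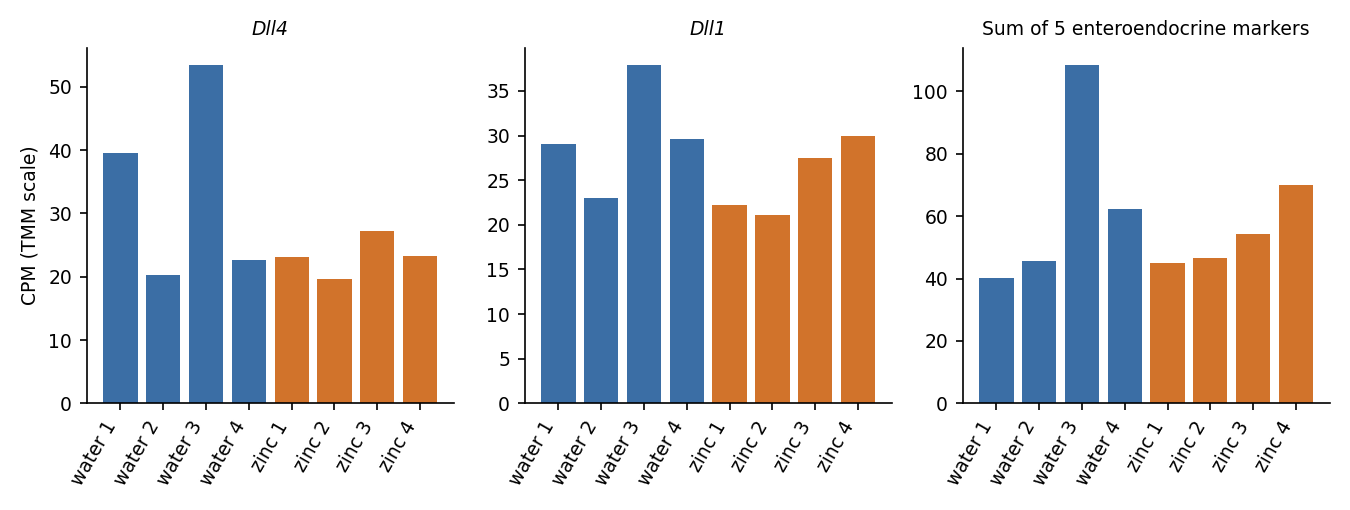
Dll4, Dll1 and the sum of 5 enteroendocrine markers in CPM on the TMM scale, 1 bar per library (blue for water, orange for zinc). Water replicate 3 has the highest bar in all 3 panels, at 53.5 CPM for Dll4, 37.9 CPM for Dll1 and 108.5 CPM for the markers.

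A part of the reads of both Delta genes may belong to genes on the opposite strand. Exons of Fam120b cover 27.6% of the exon bases of Dll1, with up to 568 counts for Fam120b in a library, and exons of the long non-coding gene Gm14207 cover 15.6% of those of Dll4, with up to 184 counts. The library kit keeps the strand, but no source used here gives the strand setting of the counting.

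The family of Notch ligands held 5 genes, of which all could be tested and 0 passed the threshold. Dll4 took 32.8 to 52.4% of their length-scaled RNA and Dll1 took 26.6 to 37.7%. Jag2, a Jagged ligand gene, had the smallest p of the family. It was at 0.88, 1.59, 1.35 and 2.56 CPM in water and 2.44, 3.09, 2.05 and 4.42 CPM in zinc, a log2 fold change of 0.89 ± 0.36 SE (edgeR unadjusted p = 0.0231, adjusted p = 0.998). Jag1, the other Jagged gene, was at 4.82, 5.28, 6.51 and 8.21 CPM in water and 3.50, 4.35, 3.75 and 5.35 CPM in zinc, a log2 fold change of -0.55 ± 0.23 SE (unadjusted p = 0.0266, adjusted p = 0.998). The groups overlapped in both Jagged genes, and their fitted differences had opposite signs.

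Of 16 genes for Notch receptors and targets, 13 could be tested and 0 passed, with 8 above 0 and 5 below. The highest per kb was Atoh1 (44.2), the transcription factor gene of the secretory lineage that Notch signalling represses. It was at 90.4 ± 9.76 CPM in water and 97.1 ± 15.6 CPM in zinc. The smallest p was that of the receptor gene Notch4, at 12.6 ± 2.37 CPM in water and 15.5 ± 4.45 CPM in zinc (edgeR adjusted p = 0.998).

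Ephb3 (ENSMUSG00000005958, chromosome 16, 21023495 to 21042057, plus strand, 16 merged exons) is the Eph receptor gene that places Paneth cells at the crypt base. It was at 140.0, 126.0, 119.8 and 101.5 CPM in water and 111.8, 137.6, 116.0 and 104.8 CPM in zinc. The 4 zinc libraries all lay within the range of the water libraries, and the log2 fold change was -0.05 ± 0.12 SE (95% interval -0.31 to 0.21).

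Ephb2 (ENSMUSG00000028664, chromosome 4, 136374850 to 136563351, minus strand, 16 merged exons) encodes the receptor better known from stem and progenitor cells. Its levels were 57.2, 71.5, 72.0 and 68.7 CPM in water and 54.9, 73.4, 65.2 and 67.6 CPM in zinc, and the libraries numbered 1 were the lowest of each group. The log2 fold change was -0.05 ± 0.12 SE (95% interval -0.29 to 0.20).

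Ephb3 exceeded Ephb2 per kb in every library. The ratio of the 2 receptors was 4.48, 3.22, 3.05 and 2.7 in water and 3.72, 3.43, 3.25 and 2.84 in zinc. It was highest in the libraries numbered 1 and lowest in those numbered 4 in both groups. The means were 3.30 and 3.29, a difference of -0.0026 on the log2 scale (exact two-sided permutation p = 1, adjusted p = 1). A ratio of 2 genes in 1 library does not depend on how the libraries are scaled.

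Of the 14 Eph receptor genes, 5 had no count in any library, 7 could be tested and 0 passed the threshold. Ephb3 took 36.7 to 50.1% of their length-scaled RNA, Ephb4 took 31.9 to 41.1% and Ephb2 took 11.2 to 14.6%. Ephb4, the receptor best known from the recognition of ephrin-B2, was the only gene among the 66 tested in the pathway lists whose groups did not overlap, which is 1.52% of them beside 2.84% of all genes. It was at 69.99, 68.6, 72.8 and 82.5 CPM in water and 63.4, 66.1, 66.7 and 67.8 CPM in zinc. The gap between the lowest water and the highest zinc library was small, and the fitted difference was -0.15 ± 0.10 SE on the log2 scale (adjusted p = 0.998 in edgeR). Of 8 ephrin genes, 5 could be tested and 0 passed. Efna4, an ephrin-A gene, had both the highest level per kb (7.67) and the smallest p, at 13.0 ± 0.93 CPM in water and 12.2 ± 1.92 CPM in zinc.

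Over all 8 pathway lists, 66 of 105 genes could be tested, 0 passed the threshold in either direction, and 31 log2 fold changes were above 0 and 35 below. The median was -0.02, beside 0.01 for all genes tested. An unadjusted p under 0.05 was found for 5 of the 66 genes (7.58%), namely Fzd4, Rhbdf1, Rhbdf2, Jag1 and Jag2, beside 558 of all 11988 genes (4.65%).

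The spread of the 7 genes between libraries depended on the scaling. On library totals alone, Wnt3 was at 153, 148, 127 and 134 CPM in water and 154, 146, 139 and 141 CPM in zinc, a coefficient of variation over the 8 libraries of 6.54%. With the TMM factors it was 24.4%. Egf went the same way, from 6.29% on library totals to 18.3% with the TMM factors. Ephb2 and Tgfa went the other way, from 23.7% to 10.4% and from 19.1% to 8.99%. For Dll4 the coefficient was high on both scales, at 43.0% and 41.3%, and for Ephb3 it was similar on both, at 13.3% and 11.8%. Dll1 went from 30.3% to 19.9%. The comparison of the 2 scalings was chosen after the data had been seen.

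The TMM factor was lowest in water replicate 1 (0.764) and zinc replicate 1 (0.775), the libraries in which the summed Paneth cell markers were highest (708400 and 703500 CPM). It was highest in water replicate 4 (1.21) and zinc replicate 4 (1.23), where the markers were lowest (361300 and 341700 CPM). Wnt3 and Egf took a nearly constant share of all counts, while relative to the bulk of the genes they were highest where the Paneth cell markers were highest. The CPM of the markers, of Wnt3 and of Egf are all divided by the same factor. A low factor thus raises all of them by arithmetic, and part of their shared pattern comes from this. The ratio of Wnt3 to Ephb3 per kb, which does not use the factors, was 3.15 and 3.92 in the libraries numbered 1 and 2.19 to 2.54 in the other 6. The part of the Paneth cell marker level in this pattern was not tested.

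**Figure D4:**
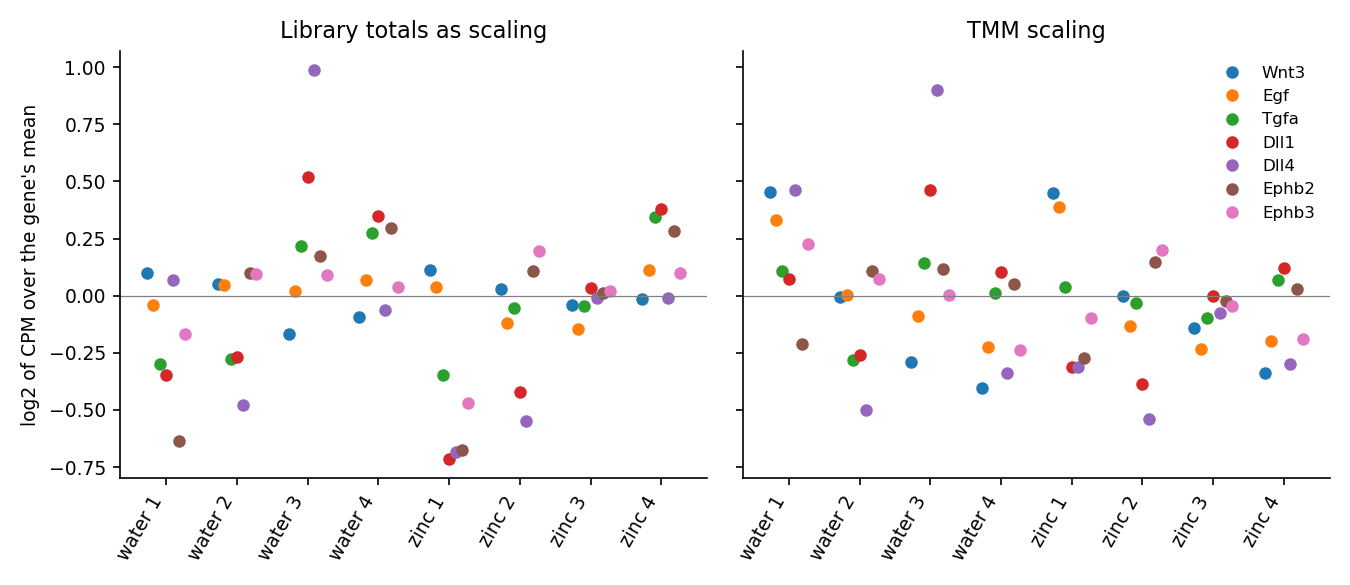
Log2 of the CPM of each of the 7 genes over its own mean of 8 libraries, with library totals as the scaling (left) and with TMM factors (right), 1 point per gene and library. Wnt3 and Egf lie close to 0 on the left, whereas on the right both are at their highest in water replicate 1 and zinc replicate 1, and Dll4 stands out in water replicate 3 on both sides.

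Genes with the most similar pattern were sought over the 8 libraries among 8664 genes with a mean of at least 5 CPM. The Pearson correlation of log2 CPM is a description, because the libraries share their scaling and their depth. The highest of 8664 values over 8 libraries are also high among unrelated genes, and how high was not computed. The part of water replicate 3, the highest library of Dll4, in the correlations of Dll4 was not tested. Nearest to Wnt3 were Cst3, the cystatin C gene (r = 0.994), Ndfip1 (0.983) and Pglyrp1, a peptidoglycan recognition protein gene (0.982). Nearest to Egf were Enpp5 (0.986), Sdcbp (0.98) and Vamp8, a gene of vesicle fusion (0.972). Nearest to Dll4 were Phf23 (0.954), Dgka (0.938) and Ovol1 (0.934), and nearest to Ephb3 were Zfp687 (0.974), Nrbp2 (0.955) and Jund (0.947).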

How the data were processed

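The values are the raw read counts that the authors deposited, as a table of genes by libraries. The submitters' processing notes name FastQC 0.12.0, STAR 2.7.0a, DESeq2 and the mm39 build. No source used here gives the counting program. Gene IDs were matched to GENCODE M39 on GRCm39 (54749 of 55414, at least 99.99% of counts). Zinc was compared with water over all genes by edgeR 4.0.16 in R 4.3.3 (TMM scaling, low-count filter with minimum count 10, robust quasi-likelihood F test, Benjamini-Hochberg threshold 0.05, treatment only), after a test on simulated data. DESeq2 1.42.0 was an alternative, as were RLE size factors, library totals, no filter, the replicate number as a block and each library left out. Ratios were tested by exact permutation, with 0.5 counts added in an alternative. Python 3.11.15 was used for figures and promoters.

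Named in the text were the 10 niche genes, of each pathway list the gene with the highest level per kb, the gene with the smallest p and any gene past the threshold, the 3 zinc genes, and the 3 nearest genes of Wnt3, Egf, Dll4 and Ephb3. Jag1, Ephb4, Fzd9 and Rhbdf2 were named after their values were seen. The niche genes and lists were chosen with earlier results of these data known. Marker sums not given above ran from 1407 to 2150 CPM for the gate, 115 to 216 for enterocyte, 31.1 to 245 for immune and 0.129 to 1.98 for erythroid genes.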

Additional observations from a re-analysis of the deposited data

Results flagged for a closer look

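Egf in zinc replicate 1 stood apart from the other zinc libraries. Its level was 56.7 CPM, while the remaining zinc libraries spanned 36.8 to 39.4 CPM, and the gap took up 0.866 of the range of the group, past the critical value of Dixon's test for 4 samples. It was the only case among 20 groups examined (7 genes and 3 ratios, each in water and in zinc), and chance gives about 1 in 20. On library totals the same library was at 43.9 CPM, between the lowest (38.6 CPM) and the highest (46.2 CPM) zinc library.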

How the results depend on the processing

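None of the 10 niche genes and no gene of the 8 pathway lists passed the threshold under any of the 13 alternatives. The count over all genes, 10 as reported, was 36 with DESeq2, 66 without the low-count filter, and ranged from 1 to 15 when 1 library was left out (1 without water replicate 2, 4 without water replicate 3 and 3 without zinc replicate 2). With the replicate block it was 32, and no niche gene was called. Same-numbered libraries deviated together with r = 0.233, 0.000, 0.127 and 0.263 for numbers 1 to 4, and the libraries numbered 1, 3 and 4 correlated best with their own number while those numbered 2 did not. The TMM factors rose from number 1 to number 4 in both groups, at 0.764, 1.02, 1.07 and 1.21 in water and 0.775, 0.998, 1.05 and 1.23 in zinc. Wnt3 fell in that order in both groups. These are hints from the data, and the labels state no shared cage, litter or day, so the numbers were not taken to pair the mice. The errors and intervals of the fit by treatment only include any variation that goes with the number.

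Leaving out 1 library turned the sign of several small differences. The log2 fold change then ran from -0.13 to 0.24 for Wnt3, from -0.21 to 0.0761 for Egf, from -0.10 to 0.0375 for Tgfa, from -0.12 to 0.0259 for Ephb2 and from -0.14 to 0.0204 for Ephb3, and the log2 ratio difference from -0.18 to 0.0445 for Egf over Tgfa and from -0.10 to 0.14 for Ephb3 over Ephb2. Dll4 (-0.73 to -0.23) and Dll1 (-0.36 to -0.11) kept their sign in each of these fits. For Dll4 the unadjusted p was 0.0211 with DESeq2, 0.0376 without the filter, 0.0241 with the block, 0.0107 without water replicate 2 and 0.28 without water replicate 3, with adjusted p-values of 0.579 to 1 over its alternatives. Depth limits Wnt11, Areg and Ereg, which were near the limit of a few counts.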

Other observations

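Efna2, an ephrin-A gene of the ephrin list that had too few counts for the test, was named after its values were seen. It had 1, 3, 2 and 0 counts in water and 5, 16, 10 and 15 counts in zinc, so the groups did not overlap. Without the low-count filter its edgeR p was 0.008 before and 0.607 after adjustment. Hes5, a Notch target gene also under the filter and named after its values were seen, went the other way. It had 1, 3, 7 and 2 counts in water and 0, 1, 1 and 0 counts in zinc, and its groups did not overlap in CPM either. Its edgeR p without the filter was 0.139 before and 0.765 after adjustment. The share of such cases among all genes under the filter was not computed, and among the genes tested it was 2.84%. Hbegf, the gene of heparin-binding EGF and likewise named after its values were seen, had 3, 21, 23 and 17 counts in water and 2, 6, 7 and 8 counts in zinc, with an edgeR p of 0.0631 before and 0.765 after adjustment. Nrg1, a neuregulin gene named in the same way, had 8 counts in zinc replicate 4 and 0 in every other library. Its edgeR p without the filter was 0.0301 before and 0.765 after adjustment.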
